A study of Mus musculus with 4 samples.

Results

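The genes described here are markers of mesothelium, the single layer of flat cells that covers the stomach and other organs and lines the body cavities. The set was named as Upk3b, Upk1b, Msln, Wt1, Lrrn4, Gpm6a, Bnc1, Muc16, Pkhd1l1 and Lrrn2, genes typical of mesothelium other than keratins. Members were taken as the gene rows whose symbol equalled one of these names, and 9 of the 10 had a row among the 23358 rows of each table. Muc16, a large membrane-bound mucin that binds mesothelin, had no row under its symbol and no value is given for it. The set was chosen by measured values, the difference between the lines in counts and RPKM, so the members' own values in that comparison are a description and carry no test.

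The study profiled 2 clonally derived mouse cell lines, both labelled as ICC progenitors (ICC, interstitial cells of Cajal, pace the contractions of the gut wall), by sequencing of messenger RNA in 2 libraries per line. For 2xSCS2F10 the source was the gastric tunica muscularis of C57BL/6J mice, and culture was at 37 °C in NeuroCult NSC medium that held 5% chick embryo extract. For 2xSCS70 the source was H-2Kb-tsA58 mice, which carry a temperature-sensitive large T antigen transgene, and culture was in the same base medium at 39.5 °C without interferon-gamma. Line, strain of origin, temperature and medium changed together and cannot be told apart, and each line is a single clone. The labels do not say that the 2 libraries of a line came from separate cultures, so p-values measure only the spread between libraries. Depth ranged from 20159986 to 24485632 fragments in genes per library.

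Mesothelial cells are epithelial in shape, with microvilli and cell junctions, yet arise from mesoderm and carry both keratins and mesenchymal proteins. WT1 is a zinc finger transcription factor of the mesothelium and of the epicardium, the mesothelium of the heart. In development some mesothelial cells lose their junctions, move into the underlying organ and give rise to fibroblasts and smooth muscle cells.

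The 8 members other than Lrrn2 with a row were lower in 2xSCS70 than in 2xSCS2F10, with no overlap between the libraries of the lines. Since the members were chosen on this contrast, nothing is read from that count. In 2xSCS2F10 they ranged from 6.73 RPKM for Pkhd1l1 to 457 RPKM for Upk3b, where RPKM relates the reads of a gene to its coding length and to the size of the library. In 2xSCS70 they ranged from 0 RPKM for Pkhd1l1 to 30.7 RPKM for Upk1b. Lrrn2 was near 0 in both lines. All 9 are protein-coding genes in GENCODE M21, with 2 exons for Lrrn2 to 78 for Pkhd1l1 in the model with most exons. In such bulk samples fewer cells of a type and less RNA per cell cannot be told apart.

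**Figure D1:**
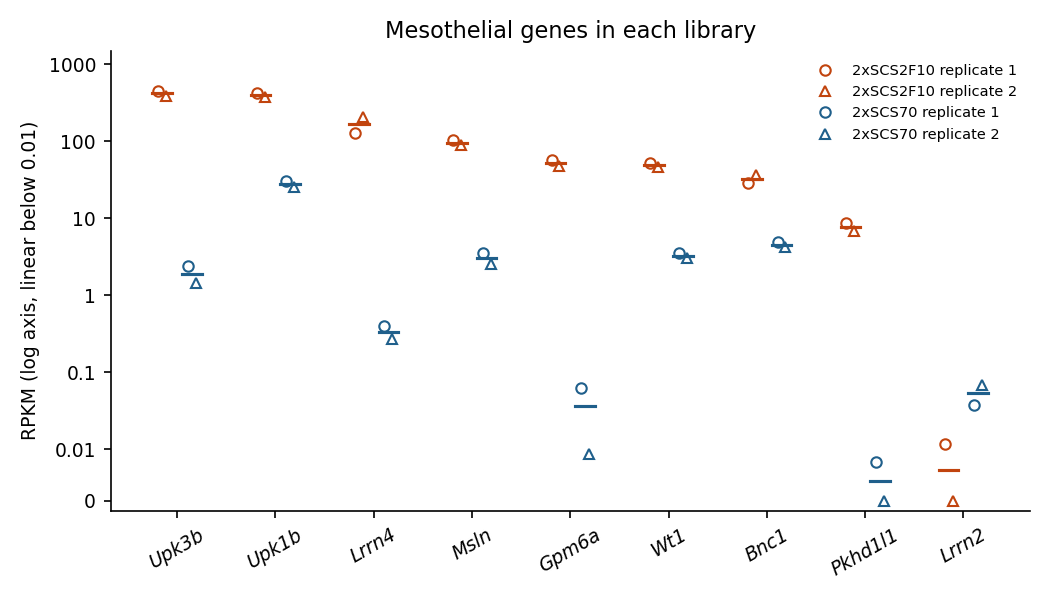
Level of each member in RPKM on a log scale, with 1 point per library and the lines in different colours. The 2xSCS2F10 libraries lie above the 2xSCS70 libraries for all members drawn except Lrrn2, and Upk3b reaches 457 RPKM.

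Upk3b encodes a uroplakin of the type 3 group, a single-pass membrane protein of urothelial plaques that mesothelium also makes. Its level was 457 and 388 RPKM in the 2xSCS2F10 libraries and 2.37 and 1.44 RPKM in the 2xSCS70 libraries. The 2xSCS2F10 libraries were both high, at ranks 68 and 61 of the 23358 rows, and the 2xSCS70 libraries were both low, at ranks 9726 and 10415. On counts scaled to library size (CPM) the means were 1214 ± 12.8 CPM (SD, n = 2) and 4.61 ± 1.28 CPM (SD, n = 2). The fitted log2 difference was -8.04 (SE 0.28), which is 263-fold lower in 2xSCS70. The row lies at chr5:136038496-136044993 on mm10.

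The stretches upstream of member start sites are shown because a short motif, among several searched, recurs in them. RefSeq promoter windows on GRCm38.p6, 250 bases before to 50 bases after a start, matched 5 members (Upk3b, Lrrn4, Gpm6a, Bnc1 and Lrrn2) in 6 windows, Gpm6a having 2. No window was available for Upk1b, Msln, Wt1 or Pkhd1l1. The core of the TEAD motif, GGAATG on either strand, was in 3 of the 6 windows, and 14.7% of 32851 promoter windows held it. TEAD proteins are the DNA-binding partners of the Hippo pathway coactivators. In the sequences below, which are the 250 bases before the start at chr5:136038246-136038495 (plus strand), chr2:132880863-132881112 (minus strand) and chr8:54779184-54779433 (plus strand), capitals mark that core.
Upk3b: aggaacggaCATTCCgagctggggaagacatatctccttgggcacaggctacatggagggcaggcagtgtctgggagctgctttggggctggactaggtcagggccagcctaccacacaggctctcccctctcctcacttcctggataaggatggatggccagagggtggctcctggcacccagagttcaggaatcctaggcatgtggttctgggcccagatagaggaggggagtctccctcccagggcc
Lrrn4: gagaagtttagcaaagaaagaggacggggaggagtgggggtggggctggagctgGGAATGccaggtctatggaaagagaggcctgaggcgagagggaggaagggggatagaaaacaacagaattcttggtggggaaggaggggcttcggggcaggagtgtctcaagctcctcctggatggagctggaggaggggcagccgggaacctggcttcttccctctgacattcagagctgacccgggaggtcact
Gpm6a: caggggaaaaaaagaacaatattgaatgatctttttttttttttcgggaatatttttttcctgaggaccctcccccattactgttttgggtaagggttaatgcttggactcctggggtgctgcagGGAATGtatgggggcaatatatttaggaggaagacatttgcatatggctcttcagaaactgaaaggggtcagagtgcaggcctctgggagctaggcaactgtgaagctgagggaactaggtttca
Counted from the start site, the core began at position -241 in Upk3b, -196 in Lrrn4 and -125 in Gpm6a. It was not found in the windows of Bnc1, Lrrn2 and the other Gpm6a start. A match of letters is a description and shows no binding.

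Across the other motifs searched on both strands, the GATA core GATAA was in 1 of the 6 windows (Upk3b) and in 25.4% of all windows. The E-box CANNTG was in 4 windows and in 72.3% of all, the TATA box TATAAA in 1 and 13.6%, and the GC box GGGCGG in 2 and 35.7%. The AP-1 site TGANTCA and the WT1 and EGR site GCGTGGGNG were in 0 windows, against 7.81% and 1.90% of all. The Bnc1 window stood apart in base composition. It held 83.3% G and C, 50 CpG pairs and 6 GC boxes, where the median window held 52.7% and 7 CpG pairs. Of the windows shown above, that of Lrrn4 held 7 CpG pairs, as the median window did, and those of Upk3b and Gpm6a held 2 and 4.

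Upk1b encodes a tetraspanin of the same urothelial plaques. It was at 422 and 374 RPKM in 2xSCS2F10 and at 30.7 and 25.5 RPKM in 2xSCS70. Both 2xSCS2F10 libraries were far above both 2xSCS70 libraries, yet the gene stayed at ranks 2032 and 2182 in 2xSCS70, above 91.3% and 90.7% of rows. Its mean fell from 997 ± 41.5 to 59.5 ± 3.48 CPM (SD, n = 2 each), a log2 difference of -4.07 (SE 0.14) or 16.7-fold. It maps to chr16:38773184-38800203.

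Msln encodes mesothelin, a surface protein held by a lipid anchor and cut from a longer precursor. Its level was 103 and 88.9 RPKM in 2xSCS2F10 and 3.50 and 2.55 RPKM in 2xSCS70. The libraries of each line lay close together and the lines did not overlap. Mean scaled counts were 287 ± 5.75 and 7.64 ± 1.15 CPM (SD, n = 2 each), 37.6-fold lower in 2xSCS70 with a log2 difference of -5.23 (SE 0.17). Msln maps to chr17:25748613-25754327.

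Lrrn4 encodes a membrane protein with leucine-rich repeats. It was at 129 and 204 RPKM in 2xSCS2F10 and at 0.393 and 0.271 RPKM in 2xSCS70. The 2xSCS2F10 libraries were high but unequal, and the 2xSCS70 libraries held only 43 and 29 fragments. The log2 difference was -9.25 (SE 0.48), or 608-fold, between 840 ± 369 and 1.38 ± 0.260 CPM (SD, n = 2 each). Lrrn2, another protein of this family, was at 0.0118 and 0 RPKM in 2xSCS2F10 and at 0.0380 and 0.0680 RPKM in 2xSCS70. That is 1 and 0 fragments against 4 and 7, a ratio of 8.16 higher in 2xSCS70 with an exact 95% interval of 1.19 to 351 that covers counting error only. Lrrn2 was too low to be tested and did not share the pattern of the other members. The rows lie at chr2:132868516-132880862 for Lrrn4 and chr1:132880355-132940005 for Lrrn2.

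Gpm6a encodes a proteolipid membrane glycoprotein better known from neurons. Its level was 57.0 and 47.7 RPKM in 2xSCS2F10 and 0.0626 and 0.00914 RPKM in 2xSCS70. It was high in both 2xSCS2F10 libraries and near 0 in both 2xSCS70 libraries, which held 7 and 1 fragments. The log2 difference was -10.72 (SE 0.51), or 1686-fold, between 263 ± 0.0947 and 0.148 ± 0.151 CPM (SD, n = 2 each). Its size rested on few fragments: the log2 difference was -12.54 without 2xSCS70 replicate 1 and -10.00 without its replicate 2. Its row spans chr8:54779434-55060878.

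Pkhd1l1 encodes a very large membrane protein related to fibrocystin. It was at 8.77 and 6.73 RPKM in 2xSCS2F10 and at 0.00748 and 0 RPKM in 2xSCS70. The 2xSCS2F10 libraries held 2819 and 2531 fragments and the 2xSCS70 libraries 3 and 0, all 3 in replicate 1. The ratio was 2403 lower in 2xSCS70 with an exact 95% interval of 822 to 11654. The unit divides by length, and this is a long gene. The row lies at chr15:44457553-44597135.

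Wt1 was at 52.9 and 46.8 RPKM in 2xSCS2F10 and at 3.55 and 3.02 RPKM in 2xSCS70. The lines did not overlap, and 345 and 287 fragments remained in 2xSCS70. Its mean was 218 ± 8.63 CPM against 12.2 ± 0.510 CPM (SD, n = 2 each), a log2 difference of -4.16 (SE 0.13) or 17.9-fold. The row lies at chr2:105126529-105173614.

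Bnc1 encodes basonuclin 1, a zinc finger protein of keratinocytes, germ cells and mesothelium. It was at 28.5 and 36.6 RPKM in 2xSCS2F10 and at 4.87 and 4.22 RPKM in 2xSCS70. The difference was the smallest of the 8 genes, and 2xSCS70 kept 11.6% of the 2xSCS2F10 level. The log2 difference was -3.10 (SE 0.24), or 8.60-fold, from 218 ± 65.1 to 25.4 ± 0.735 CPM (SD, n = 2 each). The row lies at chr7:81966662-81992299.

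Of the 14496 genes that passed the filter on low counts, 40.6% were called different between the lines, 21.8% lower and 18.8% higher in 2xSCS70. All 8 members that passed the filter were among those called lower, and since the members were chosen with this contrast known nothing is read from that count. Their median log2 difference was -6.63, where that of all tested genes was 0.02. The share of all genes called moved with single libraries: it was 66.0% without 2xSCS2F10 replicate 1, 61.8% without its replicate 2, 5.86% without 2xSCS70 replicate 1 and 6.13% without its replicate 2. Each of these fits leaves 1 library in an arm, which is assumed to vary like the 2 libraries of the other line. The p-values of such a fit thus rest on the spread of that other line alone. Counts of list genes called in such fits, given below, stand beside these shares and not beside 40.6%.

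**Figure D2:**
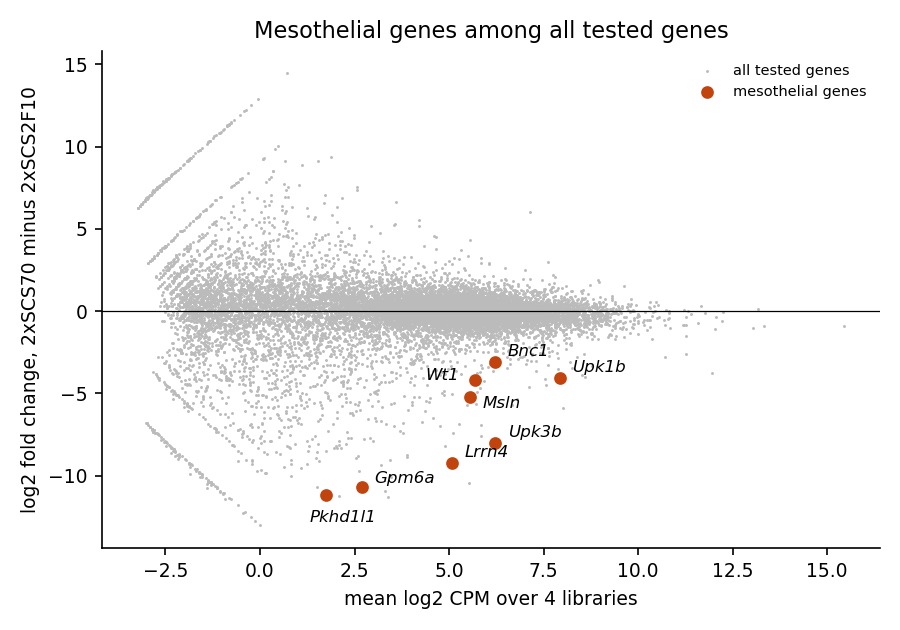
Log2 difference between the lines against mean log2 CPM over the 4 libraries, with all 14496 tested genes in grey and the 8 tested members in colour. The members lie between -3.10 for Bnc1 and the values of Gpm6a and Pkhd1l1 below -10, and they span low to high mean levels.

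The order of levels differed between the lines. In 2xSCS2F10 the order by mean RPKM was Upk3b (422), Upk1b (398), Lrrn4 (167), Msln (96.1), Gpm6a (52.3), Wt1 (49.8), Bnc1 (32.5), Pkhd1l1 (7.75) and Lrrn2. The RPKM ranges of Upk3b and Upk1b overlapped, as did those of Gpm6a and Wt1. Within each 2xSCS2F10 library, though, Upk3b was above Upk1b and Gpm6a above Wt1. In 2xSCS70 the order was Upk1b (28.1), Bnc1 (4.54), Wt1 (3.28), Msln (3.03), Upk3b (1.90), Lrrn4 (0.332), Lrrn2, Gpm6a (0.0359) and Pkhd1l1 (0.00374). There the ranges of Wt1 and Msln overlapped, though Wt1 was above Msln within each library, and those of Lrrn2 and Gpm6a overlapped too. Upk3b thus passed from the highest member to the fifth.

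Members with at least 1 RPKM in both libraries numbered 8 in 2xSCS2F10 and 5 in 2xSCS70, namely Upk1b, Bnc1, Wt1, Msln and Upk3b. Together the 9 members took 0.369% and 0.382% of counts in the 2xSCS2F10 libraries and 0.0131% and 0.0115% in the 2xSCS70 libraries. Upk1b and Bnc1 made up 75.5% and 77.5% of the member counts in 2xSCS70. In 2xSCS2F10 the leading pair was Upk3b with Upk1b in replicate 1 (56.8%) and Upk3b with Lrrn4 in replicate 2 (51.4%). Of the markers of the mature interstitial cell of Cajal, Kit, its receptor tyrosine kinase, had 0 counts in both 2xSCS2F10 libraries and 1 fragment in 2xSCS70. Ano1, which encodes a chloride channel opened by calcium, was at 4.99 and 2.58 RPKM in 2xSCS2F10 and at 0.435 and 0.438 RPKM in 2xSCS70, 9.96-fold lower in 2xSCS70 (adjusted p = 0.00219). Etv1 had 1 to 19 fragments per library, and Thbs4 had 0 counts in 2xSCS2F10 and 1 fragment in 2xSCS70.

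The libraries of 1 line also differed among themselves. In 2xSCS2F10, Lrrn4 was at 579 and 1101 CPM, 1.90-fold apart, and Bnc1 at 172 and 264 CPM, 1.53-fold apart. For the other 6 tested members the 2xSCS2F10 libraries lay closer on the log2 CPM scale, the largest difference being -0.124 for Pkhd1l1. In 2xSCS70, Upk3b differed 1.49-fold between libraries, and Gpm6a and Pkhd1l1 differed by more than 2-fold on few fragments. Of all tested genes 12.4% differed by more than 2-fold between the 2xSCS2F10 libraries and 2.72% between the 2xSCS70 libraries.

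The contrast between replicate numbers, with line as a term, was not used in choosing the members. None of the 14496 genes was called in it (0%) by edgeR's quasi-likelihood test, and 272 had an unadjusted p under 0.05. None of the 8 members was among those 272, and their adjusted p ranged from 0.981 to 1.0. On the log2 scale Lrrn4 stood at 0.41 (SE 0.34), Bnc1 at 0.28 (SE 0.21) and Upk3b at -0.25 (SE 0.22). RLE scaling called 0 genes (250 at an unadjusted p under 0.05), limma-voom 0 (405) and DESeq2 3 (261), and no member was among them.

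**Figure D3:**
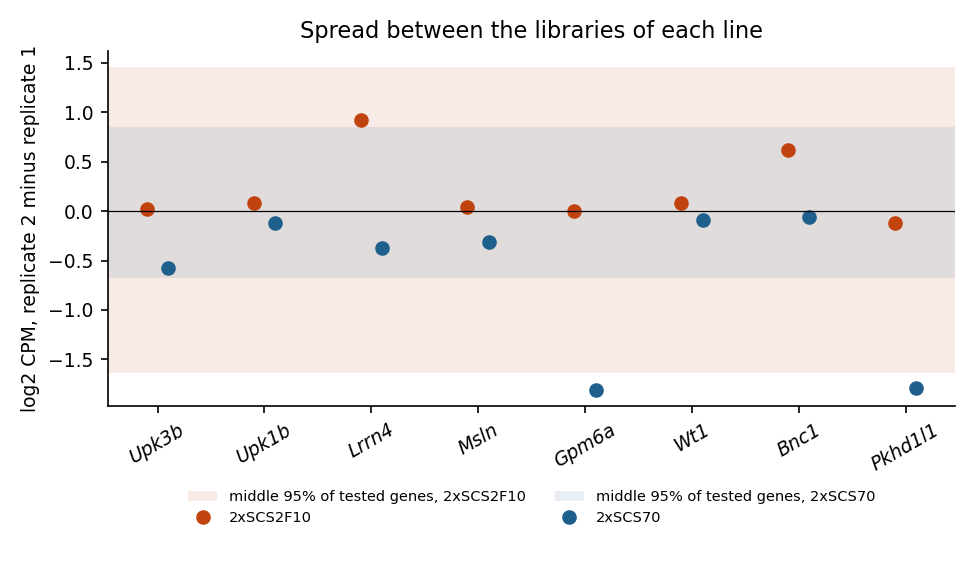
Log2 CPM of replicate 2 minus replicate 1 for each tested member in each line. In 2xSCS2F10 Lrrn4 (0.93) and Bnc1 (0.62) lie farthest from 0, and in 2xSCS70 Gpm6a (-1.81) and Pkhd1l1 (-1.79), which rest on few fragments.

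The gene lists and marker lists that follow were chosen with earlier results of these data known. Their counts are therefore a description and no separate support for the values of the members. Transcription factors known from mesothelium and epicardium were mostly lower in 2xSCS70 as well. Of 11 listed, 10 were tested, 7 fell and 1 rose, with a median log2 difference of -1.92. The share called was 80%, beside 40.6% of all tested genes. Gata6, a zinc finger factor of mesoderm and endoderm, was at 37.9 and 29.2 RPKM in 2xSCS2F10 and at 10.9 and 8.68 RPKM in 2xSCS70, 4.03-fold lower (adjusted p = 0.0010). Its relative Gata4 was at a mean of 1.16 ± 0.197 against 0.0238 ± 0.0205 RPKM (SD, n = 2 each), 55.2-fold lower (adjusted p = 0.00275). With 1 and 4 fragments of Gata4 in 2xSCS70, its log2 difference of -5.79 was -5.05 without 2xSCS70 replicate 1 and -7.14 without its replicate 2. The homeobox genes Meis2 and Meis1 fell 4.84-fold (adjusted p = 0.000648) and 3.56-fold (adjusted p = 0.00355). Foxf1a, a forkhead factor of gut mesenchyme named here because it was the only one that rose, was 2.69-fold higher (adjusted p = 0.0152), and Tcf21 had 0 counts in every library. Without 2xSCS70 replicate 1, 4 fell and 0 rose, and Meis1 was no longer called (adjusted p = 0.0623). Without 2xSCS70 replicate 2, 5 fell and 0 rose.

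Among 18 further mesothelial genes, 16 were tested, 11 fell and 3 rose in 2xSCS70, with a median log2 difference of -2.06. Those called made up 87.5%, beside 40.6% of all tested genes. Cldn15, a claudin of tight junctions, was at 68.1 and 60.0 RPKM in 2xSCS2F10 and at 1.30 and 0.948 RPKM in 2xSCS70, 67.2-fold lower (adjusted p = 0.000347). Ezr encodes ezrin, which ties microvilli to actin, and was at 337 and 312 RPKM against 40.1 and 34.6 RPKM, 10.3-fold lower (adjusted p = 0.000490). Nkain4, a small membrane protein, fell 94.7-fold (adjusted p = 0.000721) and Igfbp6, a binding protein of insulin-like growth factors, 6.02-fold (adjusted p = 0.000648). The 3 that rose, given here for that reason, were Slpi, Anxa8 and Igfbp5. Calb2, whose protein calretinin is a common mesothelial stain, had 0 counts in all 4 libraries. Without 2xSCS70 replicate 1, 6 fell, and without its replicate 2, 7 fell, with 0 higher in both.

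Keratins and junction genes of the mesothelium gave 12 lower and 3 higher of 17 tested (18 listed), with a median log2 difference of -2.54. Here 88.2% were called, beside 40.6% of all tested genes. Krt7 was at 100 and 168 RPKM in 2xSCS2F10 and at 0.381 and 0.369 RPKM in 2xSCS70, 433-fold lower (adjusted p = 0.0007). Krt8, its usual type 2 companion in simple epithelia, was at 102 and 61.3 RPKM against 8.06 and 6.46 RPKM, 13.0-fold lower (adjusted p = 0.000735). Krt18, the type 1 partner of Krt8, went the other way and was 4.13-fold higher in 2xSCS70. It was at 83.7 and 33.9 RPKM in 2xSCS2F10, which is uneven, and at 318 and 239 RPKM in 2xSCS70. Tjp1 was 1.40-fold higher and Cldn1 2.64-fold. Cldn1 was low throughout, at 0.183 and 0.0836 RPKM in 2xSCS2F10 and 0.441 and 0.371 RPKM in 2xSCS70. Cdh3, which encodes P-cadherin, fell 5.82-fold (adjusted p = 0.000567), and Pard6b, a polarity protein, 14.5-fold (adjusted p = 0.0007). With the replicate number as a block only Krt18 of the 3 was still called higher. Without 2xSCS70 replicate 1, 9 fell and 0 rose, and without its replicate 2, 8 fell and 0 rose.

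Of 14 genes of the mesothelial to mesenchymal transition, all tested, 3 were higher and 3 lower in 2xSCS70, a share of 42.9% called beside 40.6% of all tested genes. Their median log2 difference was -0.04, and its sign changed with the scaling (0.05 with upper quartile scaling). Snai1, a repressor of junction genes, was at 4.12 and 5.38 RPKM in 2xSCS2F10 and at 23.0 and 15.9 RPKM in 2xSCS70, 3.39-fold higher (adjusted p = 0.00855). Tgfbi, an extracellular matrix protein induced by TGF-beta, was 19.1-fold higher (adjusted p = 0.00323). It had 3 and 7 fragments in 2xSCS2F10, and its log2 difference of 4.26 was 5.00 without 2xSCS2F10 replicate 2 and 3.75 without its replicate 1. Mmp2, a matrix metalloproteinase, was 17.2-fold lower (adjusted p = 0.00288), a log2 difference of -4.11 that was -3.45 without 2xSCS2F10 replicate 2. Acta2, smooth muscle actin, was 6.82-fold lower (adjusted p = 0.00401), and its near-identical relatives may share reads with it. The median of the list was -0.09 without 2xSCS70 replicate 1 and -0.02 without its replicate 2. It was -0.005 without 2xSCS2F10 replicate 1 and 0.10 without its replicate 2. The number called among the 14 rose and fell in these fits with the share of all genes called.

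Of 14 genes described as targets of WT1, 13 were tested, 6 fell and 1 rose in 2xSCS70, with a median log2 difference of -0.58. The 1 that rose was Snai1, which is also among the transition genes above. The share called was 53.8%, not far above the 40.6% of all tested genes. Podxl, a sialomucin of podocytes and mesothelium that is also among the further mesothelial genes, was at 117 and 149 RPKM in 2xSCS2F10 and at 16.0 and 13.4 RPKM in 2xSCS70, 10.8-fold lower (adjusted p = 0.00127). Igf2, a growth factor, was 14.9-fold lower (adjusted p = 0.000862), and Pdgfa 2.34-fold lower (adjusted p = 0.00488). Aldh1a2, the main enzyme of retinoic acid synthesis in the embryo and on the further list too, was at 1.79 and 5.24 RPKM against 0 and 0.0144 RPKM (adjusted p = 0.00506). With 1 fragment in 2xSCS70 its ratio was 609 with an exact 95% interval of 109 to 24105. Its log2 difference ran from -12.02 without 2xSCS70 replicate 2 to -7.90 without 2xSCS2F10 replicate 2. Without either 2xSCS70 library 2 of the 13 were called lower and 0 higher, and Pdgfa (adjusted p = 0.0664 and 0.0859) and Aldh1a2 (0.0641 and 0.0567) were not. Without 2xSCS2F10 replicate 2, 9 were lower.

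**Figure D4:**
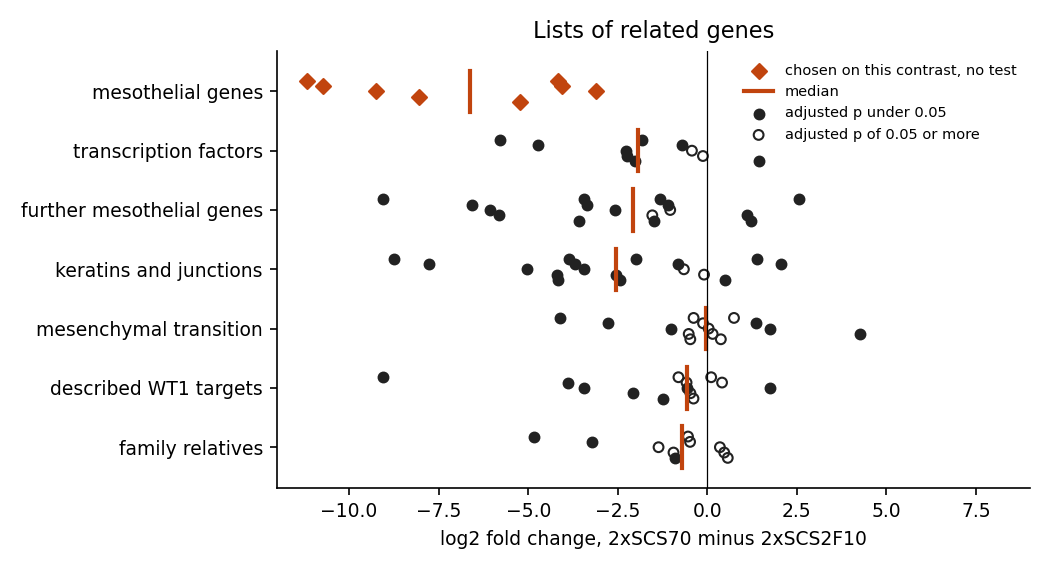
Log2 difference between the lines for the tested genes of each list, with filled points for genes called by edgeR, open points for the others, diamonds for the members and a bar at each median. The medians run from -6.63 for the members to -0.04 for the transition genes.

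Of 18 relatives of the members listed, 10 were tested, 3 fell and 0 rose, a share of 30% called beside 40.6% of all tested genes, with a median log2 difference of -0.72. The row AI314831, matched to Wt1os by its RefSeq synonym, is annotated as antisense to Wt1 and ends 19 bases before the Wt1 row begins. It was at 2.37 and 1.98 RPKM in 2xSCS2F10 and at 0.0973 and 0.0796 RPKM in 2xSCS70, 28.7-fold lower (adjusted p = 0.000640). The models of Wt1 and Wt1os do not overlap, though counts without strand do not tell which strand a read came from. Bnc2, the relative of Bnc1, was at 4.85 and 4.03 RPKM against 2.95 and 2.67 RPKM, 1.86-fold lower (adjusted p = 0.00598), a smaller difference than that of Bnc1. It was not called without either 2xSCS70 library (adjusted p = 0.108 in both).

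Pkhd1, which encodes fibrocystin, was below 0.13 RPKM in every library and was 9.32-fold lower in 2xSCS70 (adjusted p = 0.00374), though not without 2xSCS70 replicate 1 (0.0691) or replicate 2 (0.0697). Lrrn4cl, a small relative of Lrrn4, was at 1.66 and 3.36 RPKM in 2xSCS2F10 and at 1.19 and 1.18 RPKM in 2xSCS70, a log2 difference of -1.36 (adjusted p = 0.0654). It was called with the replicate number as a block (adjusted p = 0.0481), by DESeq2 (0.0133) and without 2xSCS2F10 replicate 1 (log2 difference -1.88, 3.81e-12) or replicate 2 (-0.59, 0.0242). Egr1, a zinc finger factor whose site resembles that of WT1, was at 7.55 and 4.14 RPKM against 4.91 and 4.37 RPKM (adjusted p = 0.121), with a log2 difference of -0.54 that was -0.82 without 2xSCS2F10 replicate 2 (8.07e-07) and -0.22 without its replicate 1 (0.191). The partners of Upk3b and Upk1b in urothelial plaques did not share their level: Upk2 and Upk3a had 0 counts in both 2xSCS2F10 libraries, and Upk1a was at 0.424 and 0.155 RPKM there and 0.364 and 0.472 RPKM in 2xSCS70. Leaving out a 2xSCS70 library left 1 of the 10 lower, and leaving out 2xSCS2F10 replicate 2 gave 5.

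The rows on either side of each member were also read, a rule added with some of their values seen. Of 18 neighbours, 13 were tested, 5 were called lower and 2 higher, a share of 53.8% beside 40.6% of all tested genes. Mslnl, which ends 283 bases before Msln and encodes a mesothelin-like protein, was at 0.377 and 0.296 RPKM in 2xSCS2F10 and at 0.278 and 0.136 RPKM in 2xSCS70 (log2 difference -0.94, adjusted p = 0.133). Beside AI314831, the neighbours called lower were B4galt4 next to Upk1b (-1.92, adjusted p = 0.00116), Narfl next to Msln (-1.28, adjusted p = 0.00277), Crls1 next to Lrrn4 (-2.45, adjusted p = 0.00198) and Ebag9 next to Pkhd1l1 (-0.77, adjusted p = 0.0210). Those called higher were Hdgfrp3 next to Bnc1 (5.25, adjusted p = 0.000347) and Mdm4 next to Lrrn2 (0.55, adjusted p = 0.0196). Bnc1 and Hdgfrp3 thus differed in opposite directions between the lines.

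The genes with profiles most like single members were found by the root mean square difference of centred log2 CPM over the 4 libraries, among all tested genes outside the set. Nearest to Upk3b were Nynrin (0.0447), Fras1 (0.187) and Sox11 (0.207). Nearest to Msln were Mfap5 (0.0974), Wnt11 (0.124) and Chrm4 (0.136). Nearest to Wt1 were Perp (0.0666), Doc2b (0.0703) and 4933404M02Rik (0.0769), the last with 13 and 13 fragments in 2xSCS2F10 and 0 in 2xSCS70. Fras1, a basement membrane protein, was at 22.4 ± 2.07 RPKM in 2xSCS2F10 and 0.0901 ± 0.0201 RPKM in 2xSCS70 (SD, n = 2 each). Among the members the most alike were Gpm6a with Pkhd1l1 (0.0477) and Upk1b with Wt1 (0.0489), and the least alike were Bnc1 and Pkhd1l1 (3.88). With 4 libraries in 2 lines these distances mainly order genes by the size of the line difference on the log2 CPM scale. The prior count of 2 in that scale shrinks differences of genes with few fragments, so their nearness can hide unlike fitted differences. The fitted log2 difference of 4933404M02Rik was -7.94 and that of Wt1 -4.16.

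Markers of other cell types were read beside the members, and their part in the differences was not tested. Of all tested genes 40.6% were called, 21.8% lower and 18.8% higher in 2xSCS70. The marker counts stand beside these shares and rest on few tested genes each. For urothelium and other surface epithelium, 2 of 3 tested markers (9 listed) were lower in 2xSCS70, and the summed level was 65.9 and 86.9 RPKM in 2xSCS2F10 and 0.758 and 0.714 RPKM in 2xSCS70. Krt14 alone gave 63.6 and 85.9 RPKM of the former. Cdh1, the other marker called lower, was at 2.19 and 0.967 RPKM in 2xSCS2F10 and at 0.0648 and 0.0442 RPKM in 2xSCS70. Epcam, Upk2, Upk3a and Cldn4 were at 0 in both 2xSCS2F10 libraries. For smooth muscle, 6 of 7 markers were lower, with sums of 2304 and 3413 RPKM against 387 and 325 RPKM. Acta2, also on the transition list, gave 1411 and 2054 RPKM of the former and 333 and 280 RPKM of the latter. Tagln gave 693 and 1092 RPKM of the former. Fibroblast markers gave 2 higher and 1 lower of 6 tested, with sums of 124 and 180 RPKM against 148 and 126 RPKM. Gastric epithelium gave 1 lower of 2 tested and sums of 1.37 and 2.03 RPKM against 0.172 and 0.293 RPKM. The marker called lower was Pgc, at 1.23 and 1.84 RPKM in 2xSCS2F10 and at 0 and 0.0235 RPKM in 2xSCS70. Muc5ac, Tff1 and Gkn1 were at 0 in 2xSCS2F10. Interstitial cells of Cajal gave 1 lower of 2 tested and sums of 5.02 and 2.67 RPKM against 0.552 and 0.612 RPKM. For endothelium, leukocytes, enteric glia and neurons the sums were at most 1.17, 3.37, 0.691 and 4.46 RPKM in any library. Of their 3, 2, 3 and 2 tested markers, 1 was higher in each and 1 lower in endothelium.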

How the data were processed

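RNA sequencing libraries of 2 mouse lines, 2 per line, were used. Per the labels' protocols, RNA was extracted with a miRNeasy kit and libraries were made with a TruSeq mRNA kit, which does not mark strand. Tools included TopHat2 2.0.6, Bowtie and HTSeq on mm10, per the submitters' processing notes, and no source used here names the counting annotation. Per the file headers, the values the authors deposited are raw counts per gene row. All were even, so 1 fragment was taken as 2 counts. The authors also deposited RPKM values, relative to coding length and reads per library, per the file headers. In replicate 1 tables, 25 gene names turned into dates were restored, and 69 rows shared a name.

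Groups came from the labels. Counts were tested with edgeR 4.0.16 (R 4.3.3) by the quasi-likelihood test with TMM scaling and filterByExpr, which left 14496 genes, with Benjamini-Hochberg adjustment and calls at an adjusted p under 0.05. Log2 CPM values, as used for replicate differences and profile distances, had a prior count of 2. CPM values and their means had no prior count. Fitted log2 differences came from the quasi-likelihood fit at edgeR's default prior. Each SE of a log2 difference was derived as its absolute value divided by the square root of the test's F statistic. The common biological coefficient of variation was 20.4%. A floor of 3 fragments was between 0.109 and 0.157 CPM in the 4 libraries. Genes with 1 to 3 fragments in a line were given an exact 95% interval of the ratio, and such intervals cover counting error only. Alternatives used DESeq2 1.42.0 and limma 3.58.1, among others. The code was tested on simulated data.

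The members, the 6 gene lists and the 9 marker lists were chosen with earlier results of these data known. Named were all members, relatives at 1 RPKM or more in any library, up to 4 called genes of each list by adjusted p, and the 3 profiles nearest to Upk3b, Msln and Wt1. Locations are 1-based on mm10, as in the deposited tables. Gene models came from GENCODE M21 and promoters from RefSeq on GRCm38.p6.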

Additional observations from a re-analysis of the deposited data

How the results depend on the processing

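With 2 libraries per line, genes of few fragments (Gpm6a and Pkhd1l1 in 2xSCS70, and Lrrn2) are measured poorly, and a difference of lines is also one of strain, temperature and medium. The 8 tested members stayed lower in 2xSCS70 under each alternative, from which nothing is read since they were chosen on that contrast. No called gene named by the rule changed sign. Their log2 differences ran from -3.39 to -2.59 for Bnc1, from -8.36 to -7.20 for Upk3b and from -15.51 to -3.11 for Pkhd1l1, the last on log2(RPKM + 1), where the constant shrinks low genes. On log2(RPKM + 1) 1828 genes were called lower and on log2(RPKM + 0.1) 1964, against 3161. More genes were then called higher (3218 and 3377) than lower, as with upper quartile scaling (3129 higher, 2818 lower), and the share of calls that were higher was 63.8%, 63.2% and 52.6% against 46.3%. The median log2 difference of all genes moved from 0.02 to 0.11 with upper quartile scaling, 0.15 on log2(RPKM + 1) and 0.25 on log2(RPKM + 0.1).

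Of the family relatives, 1 was lower (Bnc2) with a mean of at least 5 CPM required, and 1 was lower (AI314831) and 1 higher (Muc1) on log2(RPKM + 1), against 3 and 0. DESeq2 called 3 genes between replicate numbers (Rmrp, Krt19 and Rn45s), named after their values were seen, where edgeR called 0. The median of the transition genes, -0.04, was 0.05 with upper quartile scaling, 0.03 by limma-voom and with the replicate block, 0.25 and 0.26 on the RPKM scales and 0.10 without 2xSCS2F10 replicate 2. The cause was not tested. Leaving out 1 library at a time gave 291 to 4772 genes higher and 559 to 4795 lower, and 8 to 8 members lower. By list the ranges were 0 to 1 higher and 4 to 8 lower for transcription factors, 0 to 3 and 6 to 13 for further mesothelial genes, 0 to 4 and 8 to 14 for keratins and junctions, 0 to 6 and 0 to 6 for the transition genes, 0 to 1 and 2 to 9 for described WT1 targets, and 0 to 0 and 1 to 5 for relatives. On log2(RPKM + 1) and log2(RPKM + 0.1) Bnc2 lost its call (adjusted p = 0.0863 and 0.0825), and Pkhd1 on the first (0.0707).

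Samples of the lines share only a replicate number: the correlation of same-numbered deviations was 0.0539 over 14496 genes. With the replicate number as a block, 2381 genes were called higher and 2841 lower, and 1 of the keratin and junction genes was higher (Krt18) against 3.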
